A study of Mus musculus with 4 samples.

Results

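The genes described here are 34 genes of cholesterol and fatty acid synthesis, with their regulators, measured in mouse embryonic fibroblasts (MEFs) cultured with or without pigment epithelium-derived factor (PEDF). They were picked by name, by their place in these pathways, at a time when earlier results of these data were known, and all 34 were found among the 55487 genes counted. MEFs are primary connective tissue cells grown from whole embryos, and PEDF is a secreted protein of the serpin family. The cells were wild-type MEFs from C57BL/6J embryos, and the labels give them as passage 2 while the study's text gives passage 3. PEDF libraries came from MEFs that received 100 ng/mL PEDF, purified from mammalian cells, for 24 h, and Control libraries came from untreated MEFs. Each of 2 experiments gave 1 Control and 1 PEDF library of polyadenylated RNA, and each experiment had MEFs from its own embryos. The paired question is therefore whether these genes differed between PEDF-treated and untreated cells of the same preparation.

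Cells build cholesterol from acetyl-CoA in a long series of enzyme steps. The early steps, the mevalonate pathway, make isoprenoid units, and the late steps close the ring of squalene to lanosterol and convert lanosterol to cholesterol. Fatty acids are built from the same acetyl-CoA by a carboxylase and a synthase, and are then elongated and desaturated. Most genes of both pathways are targets of the transcription factors SREBP-1 and SREBP-2, encoded by Srebf1 and Srebf2. The protein Scap carries these factors from the endoplasmic reticulum to the Golgi apparatus when sterols are scarce, and the Insig proteins hold Scap back when sterols are plentiful.

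In these data the levels of the genes ranged widely, and none differed by 50% or more between PEDF-treated and Control MEFs in either experiment. No gene of the 34 passed the test in edgeR's quasi-likelihood fit without a term for the experiment, in which 0.00516% of all 19384 tested genes passed at an adjusted p under 0.05. At an unadjusted p under 0.05, 1 of the 34 genes was higher (Mvd) and 1 was lower (Fasn), beside 3.22% and 3.66% of all genes, which are shares of similar size. With the experiment as a block, so that each PEDF library is set against the Control library of its own preparation, Mvd passed as higher and Fasn as lower. In that fit 1.67% of all tested genes passed as higher and 2.07% as lower, and 1 of 34 genes in each direction is a share of similar size. When trends with exon length and GC content were also removed in that fit, neither gene passed, and 0.929% and 1.17% of all genes did as higher and lower.

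The promoters of 3 genes are shown because 2 of them, Mvd and Fasn, passed with the block, and because the third, Hmgcs1, held the only full match to the sterol regulatory element among the promoters examined. The sequences are the 250 bases before the RefSeq start site in build GRCm38.p6, written 5′ to 3′ on the strand of the gene. Capitals mark matches on either strand to the sterol regulatory element (TCACNCCAC), the CCAAT box (CCAAT, or ATTGG on the other strand) and the GC box (GGGCGG, or CCGCCC on the other strand). The Hmgcs1 window is chr13:119690101-119690350 on the plus strand, the Mvd window is chr8:122443423-122443672 on the minus strand, and the Fasn window is chr11:120824548-120824797 on the minus strand.
Hmgcs1: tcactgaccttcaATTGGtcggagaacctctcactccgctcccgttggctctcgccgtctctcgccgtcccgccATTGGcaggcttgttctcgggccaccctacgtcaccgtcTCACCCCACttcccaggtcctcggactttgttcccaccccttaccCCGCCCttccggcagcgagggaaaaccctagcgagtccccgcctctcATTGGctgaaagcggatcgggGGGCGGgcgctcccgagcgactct
Mvd: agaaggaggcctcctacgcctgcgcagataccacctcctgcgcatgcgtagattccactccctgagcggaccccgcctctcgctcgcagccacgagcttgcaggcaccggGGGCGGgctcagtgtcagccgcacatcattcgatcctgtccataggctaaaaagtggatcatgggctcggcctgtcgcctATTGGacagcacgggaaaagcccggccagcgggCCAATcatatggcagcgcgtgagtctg
Fasn: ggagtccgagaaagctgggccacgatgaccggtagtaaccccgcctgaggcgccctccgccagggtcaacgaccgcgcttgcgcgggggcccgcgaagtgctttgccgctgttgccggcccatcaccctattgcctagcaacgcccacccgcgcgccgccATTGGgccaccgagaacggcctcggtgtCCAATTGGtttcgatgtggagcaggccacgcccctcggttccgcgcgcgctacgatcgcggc

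RefSeq promoters were found for 26 of the 34 genes. No entry was used for Fdft1, Fdps, Fads1, Sqle, Stard4, Pcyt2, Scd1 and Scd2. The CCAAT box was present in 20 of the 26 genes (76.9%), compared with 37.5% of all 27025 genes with a promoter. The GC box was present in 22 of the 26 genes (84.6%), compared with 35.4% of all genes. The sterol regulatory element was matched in 1 of the 26 genes (3.85%) and in 1.22% of all genes, and in Hmgcs1 it lay from 137 to 129 bases before the start site. A shorter form of it (CACNCCAC), searched after the first result was seen and contained in the full form, was matched in Acat2, Hmgcs1 and Insig1, or 11.5% of the 26 genes and 6.05% of all genes. The 34 genes all had counts here, while the 27025 genes were taken without regard to expression. Whether other expressed genes hold these boxes as often was not tested, so the shares do not show a trait particular to these pathways. A match is a description of these letters and not evidence of a bound site.

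The 4 libraries held 14722848 to 18144640 counts. All 34 genes passed the filter of at least 10 counts in total, with between 446 (Fdps) and 146666 (Scd2) counts over the libraries. As a check of the cell type, 10 fibroblast markers summed to 16600 and 19900 TPM (transcripts scaled for gene length and library size) in Control MEFs of experiments 1 and 2, and to 14800 and 16800 in PEDF-treated MEFs. The fibroblast sum was thus lower with PEDF in both experiments, mostly through Col1a1 (8330 and 10600 TPM in Control MEFs, 7230 and 8470 with PEDF) and Fn1 (2060 and 2540, and 1620 and 1870). Its members did not move together, as Dcn (43.9 and 33.3, and 50.2 and 45.5), Lum (94.3 and 64.1, and 103 and 90.8) and Thy1 (163 and 190, and 181 and 195) were higher with PEDF in both experiments. The part of these markers in the results below was not tested. Markers of adipocytes, cells rich in lipid synthesis enzymes, summed to between 3.39 and 4.03 TPM in the 4 libraries, and Adipoq, Lep and Cfd were at 0 in all of them. Markers of hepatocytes summed to 141 and 135 TPM in the Control and PEDF libraries of experiment 1 and to 68 and 73.9 in experiment 2. Sums over the macrophage markers were 186 and 182 TPM in experiment 1 and 105 and 151 in experiment 2. Over the epithelial markers they were 90.8 and 86.4, and 72.5 and 73.9. For skeletal muscle they were 363 and 395, and 432 and 474, for neural markers 233 and 235, and 281 and 262, and for endothelial markers between 6.83 and 7.24 in all libraries. In bulk RNA, fewer cells of a type and less RNA per cell cannot be told apart.

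Levels are compared between genes in TPM, which account for gene length. Scd2, a stearoyl-CoA desaturase, had the highest level, with 1130 and 1190 TPM in Control MEFs and 1080 and 1200 in PEDF-treated MEFs. It was followed, on the mean of the 4 libraries, by Fads2 (244 TPM), Cyp51 (235), Acly (230) and Hmgcs1 (221), whose ranges overlapped from each gene to the next. Fads1 (189 TPM) stood apart from its neighbours on both sides. From Scd1 (151 TPM) through Srebf2 (146), Fasn (140), Insig1 (118), Sqle (113), Fdft1 (104), Acat2 (103), Srebf1 (97.9) and Mvd (90.0) to Msmo1 (82.1), each range overlapped the next, so neighbours in that run did not differ beyond their spread, while Scd1 lay wholly above Insig1 and all genes after it. Neighbours also overlapped from Mvk (61.5 TPM) through Pmvk (60.4), Pcyt2 (54.4), Elovl6 (50.2) and Nsdhl (47.8) to Sc5d (42.9), although Mvk lay wholly above Pcyt2 and the genes after it. The last run of overlapping neighbours went from Idi1 (36.6 TPM) through Ebp (35.5), Dhcr7 (34.7), Hsd17b7 (31.9), Scap (31.0) and Lss (28.9) to Stard4 (26.4), with Idi1, Ebp, Dhcr7, Hsd17b7 and Scap wholly above Stard4. Acaca (18.3 TPM) and Insig2 (17.6) overlapped, while Tm7sf2 (13.8), Acss2 (7.17) and Fdps (4.53) were each separate from their neighbours. The widest relative range over the libraries was that of Fasn, from 117 to 167 TPM, a ratio of 1.43, and the narrowest was that of Mvk, with a ratio of 1.03.

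**Figure D1:**
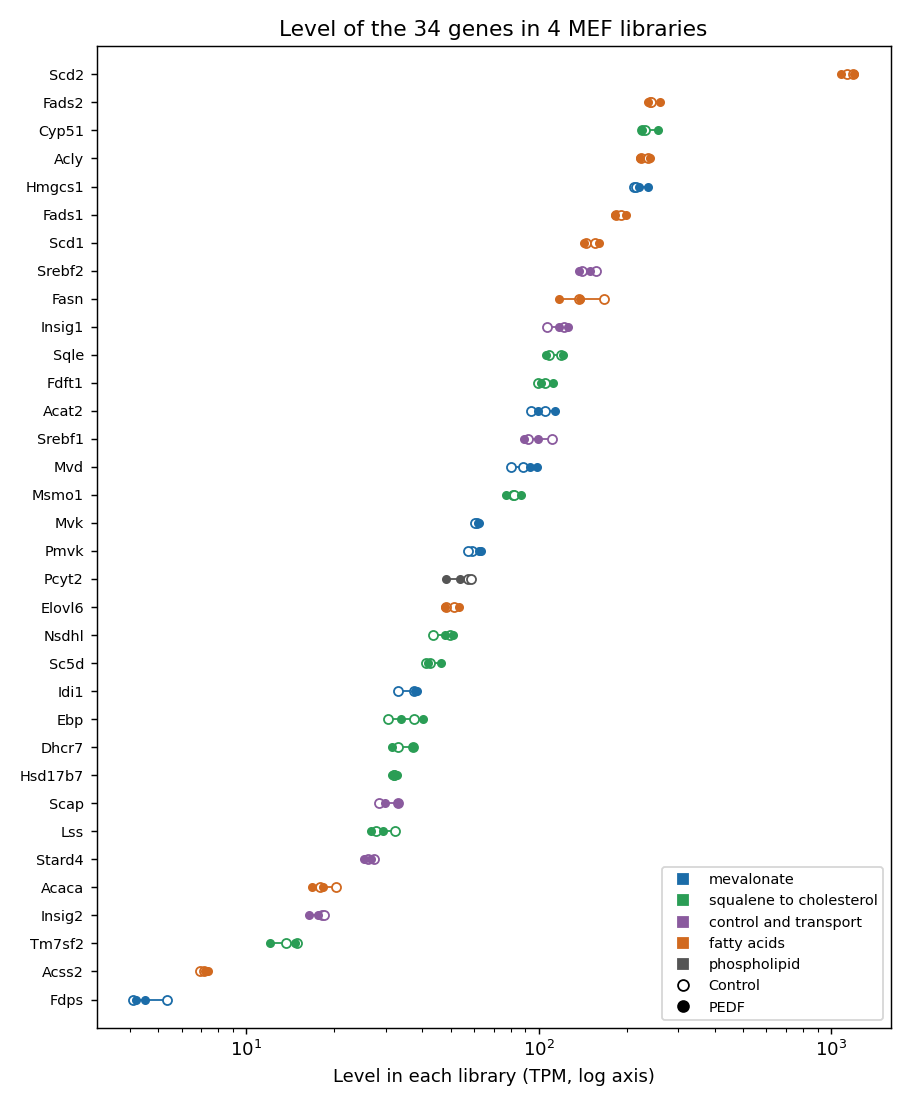
The level of each of the 34 genes in TPM on a log axis, with an open circle for each Control library, a filled circle for each PEDF library, and colours for the roles. Scd2 stands alone near 1150 TPM, the Control and PEDF circles of most genes intermingle, and Fdps is lowest at about 4.53 TPM.

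The 7 genes of the mevalonate part were, on the median, slightly higher with PEDF. Their levels are given as CPM, counts scaled to library size after TMM normalization, and paired values are in the order of experiment 1 and experiment 2. Summed over the 7 genes, Control MEFs had 638 and 619 CPM in experiments 1 and 2 and PEDF-treated MEFs had 679 and 692, which is 6.33% more in experiment 1 and 11.9% more in experiment 2. Of the 7 genes, 5 were higher in both experiments and 0 were lower in both, and the median log2 fold change was 0.125 with the block. It was 0.069 after the length and GC correction. Over all tested genes 30.1% were higher in both experiments, 28.8% were lower in both, and the median with the block was 0.002. Only Mvd passed a test, and only with the block and without the correction.

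Mvd, which decarboxylates mevalonate diphosphate (ENSMUSG00000006517, minus strand of chromosome 8 from 122433601 to 122443422), had 858 and 916 counts without PEDF and 987 and 1133 with it. These are 58.1 and 51.4 CPM in Control MEFs (mean 54.7 ± 4.80, SD, n = 2) and 63.5 and 63.6 in PEDF-treated MEFs (63.5 ± 0.0642). Both PEDF libraries were above both Control libraries. The log2 ratios were 0.13 in experiment 1 and 0.31 in experiment 2. The log2 fold change was 0.22 ± 0.08 (SE) without the block, with an unadjusted p of 0.0214 and an adjusted p of 0.696 in edgeR. With the block the SE was 0.0678 and edgeR's adjusted p was 0.0363, and after the length and GC correction the log2 fold change was 0.17 with an adjusted p of 0.213. DESeq2 with the block gave an unadjusted p of 0.102 and, through its filter on low counts, left 17 of the 34 genes, Mvd among them, without an adjusted p. In edgeR without the block, the log2 fold change was 0.13 without Control replicate 2 and 0.31 without Control replicate 1, with adjusted p-values of 0.999 and 0.15.

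Hmgcs1, which makes HMG-CoA and has the match to the sterol regulatory element shown above, had 5075 and 6101 counts without PEDF and 5736 and 6751 with it. The levels were 344 and 342 CPM in Control MEFs and 369 and 379 in PEDF-treated MEFs, so the groups did not overlap. The log2 fold change with the block was 0.13 ± 0.0453 (SE), with an adjusted p of 0.0994 in edgeR. Of its exon bases, 12.1% lie opposite an exon of the antisense gene Gm48342, which had 1331 and 1542 counts without PEDF and 1499 and 1810 with it. The log2 fold change of Gm48342 was 0.17 with the block and 0.05 after the length and GC correction. The strand setting of the counting is not given in the sources used here, so reads of the shared bases cannot be assigned with certainty.

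Acat2, a cytosolic thiolase that makes acetoacetyl-CoA, went in opposite directions in the experiments. It had 1402 and 1478 counts without PEDF and 1433 and 1800 with it, with log2 ratios of -0.04 and 0.29 and a block value (the log2 fold change in the fit with the block) of 0.13. Of the 50-base stretches (words) of its longest transcript, 45.9% also occur in its neighbour paralog Acat3, which had 1110 and 1295 counts in Control MEFs and 955 and 1249 in PEDF-treated MEFs and a block value of -0.17. Since only uniquely mapped reads were counted, the counts of both genes are uncertain. Idi1, the isomerase of isopentenyl diphosphate, had 605 and 808 counts without PEDF and 751 and 834 with it, with log2 ratios of 0.24 and 0.05. Both PEDF libraries were above both Control libraries, and 21.3% of its 50-base words occur in other genes.

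Pmvk, which phosphorylates phosphomevalonate, had 35.9 and 33.8 CPM in Control MEFs and 38.9 and 37.6 in PEDF-treated MEFs, so both PEDF libraries were above both Control libraries. Its log2 ratios were 0.11 and 0.15 and its block value was 0.13, with an adjusted p of 0.486 in edgeR. Mvk, which phosphorylates mevalonate, had 58.3 and 55.9 CPM and 60.5 and 57.9, and its log2 ratio rounded to 0.05 in both experiments. Fdps, which makes farnesyl diphosphate, had 6.10 and 7.79 CPM in Control MEFs and 6.43 and 6.57 in PEDF-treated MEFs, with log2 ratios of 0.08 and -0.25. Its level is uncertain, because 26.7% of its exon bases are shared on the same strand with Gm43738, a gene listed at 0 in all libraries, and 11.7% of its 50-base words occur elsewhere.

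**Figure D2:**
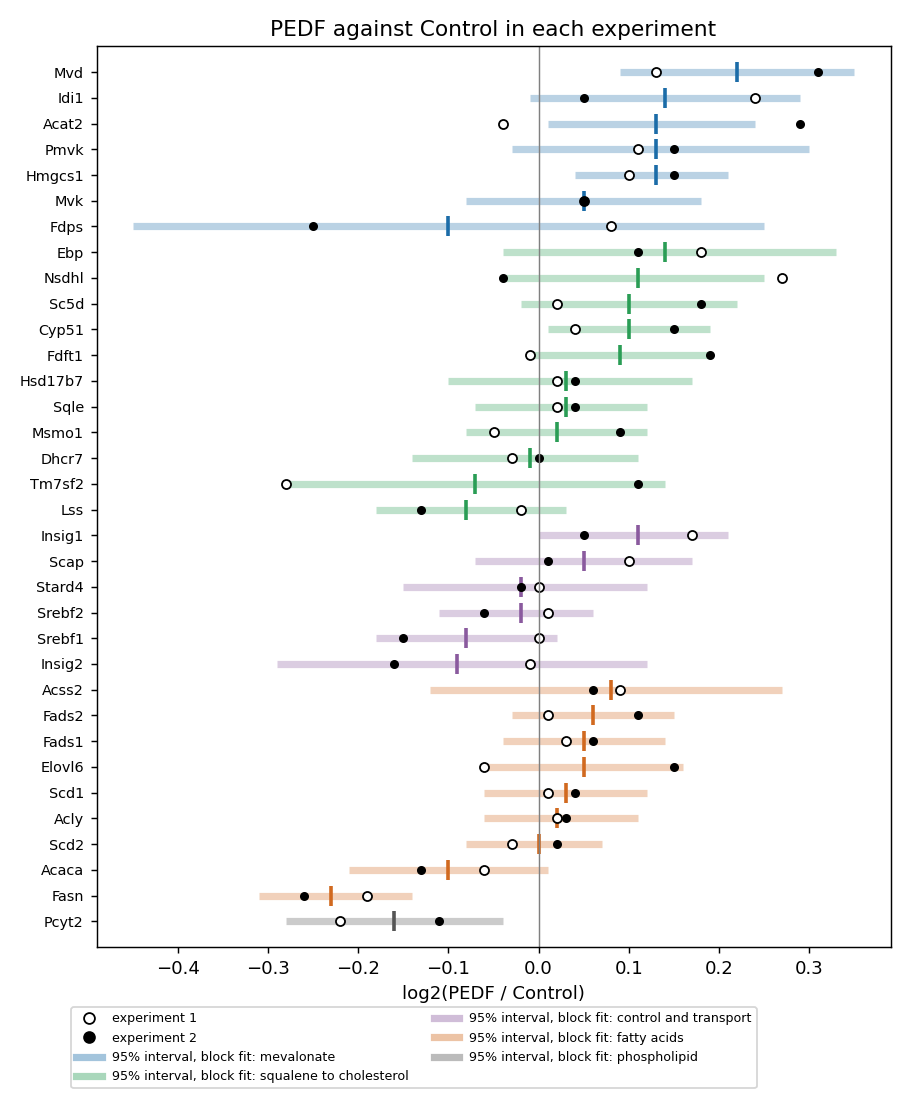
The log2 ratio of PEDF to Control in experiment 1 (open circles) and experiment 2 (filled circles) for the 34 genes, grouped by role, with the log2 fold change of the block fit as a vertical tick and its 95% interval as a coloured bar. Mvd, Hmgcs1 and Cyp51 have both experiments and the interval to the right of 0, and Fasn and Pcyt2 have them to the left. Insig1 has both experiments to the right and an interval from 0.00 to 0.21. Most other intervals include 0.

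The 11 genes from squalene to cholesterol had no member that passed a test. Summed over these genes, Control MEFs had 1300 and 1320 CPM and PEDF-treated MEFs had 1310 and 1400, which is 1.00% more with PEDF in experiment 1 and 6.11% more in experiment 2. Of these genes 5 were higher in both experiments, 1 was lower in both, and 5 went in opposite directions. The median log2 fold change with the block was 0.031. Together with the mevalonate part, the 18 enzymes of cholesterol synthesis summed to 2.76% more in experiment 1 and 7.95% more in experiment 2.

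Cyp51, which removes a methyl group from lanosterol, had 5237 and 6283 counts without PEDF and 5661 and 6987 with it. The levels were 355 and 352 CPM in Control MEFs and 364 and 392 in PEDF-treated MEFs, so the groups did not overlap, and the block value was 0.10 with an adjusted p of 0.272 in edgeR. Fdft1, the squalene synthase, had 2260 and 2512 counts without PEDF and 2370 and 2865 with it, with log2 ratios of -0.01 and 0.19. Its counts carry some uncertainty, as 18.3% of its exon bases lie opposite exons of Ctsb. Hsd17b7, a sterol ketoreductase, and Sc5d, a sterol desaturase, also had both PEDF libraries above both Control libraries. Sc5d had 73.2 and 69.3 CPM in Control MEFs and 74.2 and 78.4 in PEDF-treated MEFs, with a block value of 0.10.

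Among the other genes of this route, Ebp, a sterol isomerase, had log2 ratios of 0.18 and 0.11 and a block value of 0.14. Nsdhl, a sterol dehydrogenase, had log2 ratios of 0.27 and -0.04 and a block value of 0.11. The next 3 genes lay close to 0. Hsd17b7 had a block value of 0.03, Sqle, the squalene epoxidase, also had 0.03, and Msmo1, a sterol methyl oxidase, had 0.02. A block value below 0 was found for Dhcr7, Lss and Tm7sf2, none of which passed. Dhcr7, which carries out the last step of a branch to cholesterol, had -0.01, and Lss, which forms lanosterol, had -0.08 with log2 ratios of -0.02 and -0.13. Tm7sf2, a sterol reductase, had -0.07, with log2 ratios of -0.28 and 0.11, and 12.1% of its exon bases are shared on the same strand with Vps51.

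The 6 genes of control and transport showed no common direction. Their summed level was 2.46% above Control in experiment 1, and in experiment 2 the difference was -3.86%. The median log2 fold change with the block was -0.02. Srebf1 had 2713 and 3854 counts without PEDF and 2852 and 3469 with it, with log2 ratios of 0.00 and -0.15. Its levels were 184 and 216 CPM in Control MEFs and 183 and 195 in PEDF-treated MEFs, and the ranges overlapped. Srebf2 had 5255 and 6950 counts without PEDF and 5567 and 6677 with it, with log2 ratios of 0.01 and -0.06. The transcripts of both SREBP genes thus lay within 10% of Control in both experiments.

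Insig1, whose transcript is itself a target of the SREBPs, had 1736 and 2334 counts without PEDF and 2050 and 2412 with it. The levels of 118 and 131 CPM in Control MEFs and 132 and 135 in PEDF-treated MEFs did not overlap, and the block value was 0.11 with an adjusted p of 0.337 in edgeR. Insig2, its paralog, had 330 and 394 counts without PEDF and 345 and 353 with it, with log2 ratios of -0.01 and -0.16. Scap, which binds both Insig proteins, had log2 ratios of 0.10 and 0.01, and 13.2% of its exon bases lie opposite another gene. Stard4, a carrier of sterol in the cytosol, had 51.8 and 52.8 CPM in Control MEFs and 51.7 and 51.9 in PEDF-treated MEFs, with a block value of -0.02.

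Fasn, the fatty acid synthase (ENSMUSG00000025153, minus strand of chromosome 11 from 120805846 to 120824547), had 7875 and 11252 counts without PEDF and 7274 and 9370 with it. These are 534 and 631 CPM in Control MEFs (mean 582 ± 68.7, SD, n = 2) and 468 and 526 in PEDF-treated MEFs (497 ± 41.0). Both PEDF libraries were below both Control libraries, with a difference of -12.3% in experiment 1 and -16.6% in experiment 2. The log2 fold change was -0.23 ± 0.09 (SE) without the block, with an unadjusted p of 0.018 and an adjusted p of 0.696 in edgeR. With the block the SE was 0.0437 and edgeR's adjusted p was 3.36e-05. After the length and GC correction the log2 fold change was -0.11, with an adjusted p of 0.154 in edgeR. In the fit with no block and a library left out, it was -0.34 without Control replicate 1 (edgeR, adjusted p = 0.0407) and -0.31 without PEDF replicate 2 (0.335). It was -0.10 without Control replicate 2 and -0.15 without PEDF replicate 1, each with an adjusted p of 0.999 in edgeR.

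The other genes of fatty acid synthesis did not pass any of these tests. Over the 9 genes, 5 were higher in both experiments and 2, Fasn and Acaca, were lower in both. The median log2 fold change with the block was 0.029, and the summed level differed from Control by -2.52% and -0.407% in the experiments. Acaca, the acetyl-CoA carboxylase that feeds Fasn, had 1596 and 2126 counts without PEDF and 1613 and 1936 with it, with log2 ratios of -0.06 and -0.13. Its block value was -0.10 and turned to 0.04 after the length and GC correction. Of its 50-base words 52.6% also occur in the pseudogene Gm5182, so its counts are uncertain.

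The desaturases showed small differences. Scd1 had 3724 and 4699 counts without PEDF and 3960 and 4836 with it, with a block value of 0.03. Scd2 had 32449 and 40118 counts without PEDF and 33490 and 40609 with it, with log2 ratios of -0.03 and 0.02. Both genes place the first double bond in saturated fatty acids, and their PEDF and Control libraries overlapped. Fads1 and Fads2, which desaturate polyunsaturated fatty acids, had both PEDF libraries above both Control libraries, with block values of 0.05 and 0.06. Elovl6, an elongase, had log2 ratios of -0.06 and 0.15. Acly, which supplies cytosolic acetyl-CoA from citrate, had 0.02 and 0.03. Acss2, which makes acetyl-CoA from acetate, had 0.09 and 0.06 and did not overlap between the groups.

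Pcyt2, which makes an activated precursor of phosphatidylethanolamine, was the second gene with both PEDF libraries below both Control libraries. It had 1306 and 1564 counts without PEDF and 1183 and 1448 with it, or 88.5 and 87.7 CPM and 76.1 and 81.3. The log2 fold change was -0.16 ± 0.08 (SE) without the block, with an adjusted p of 0.719 in edgeR, and the adjusted p was 0.112 with the block. After the length and GC correction the log2 fold change was -0.14. The gene therefore kept its direction in each of these fits and passed in none.

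**Figure D3:**
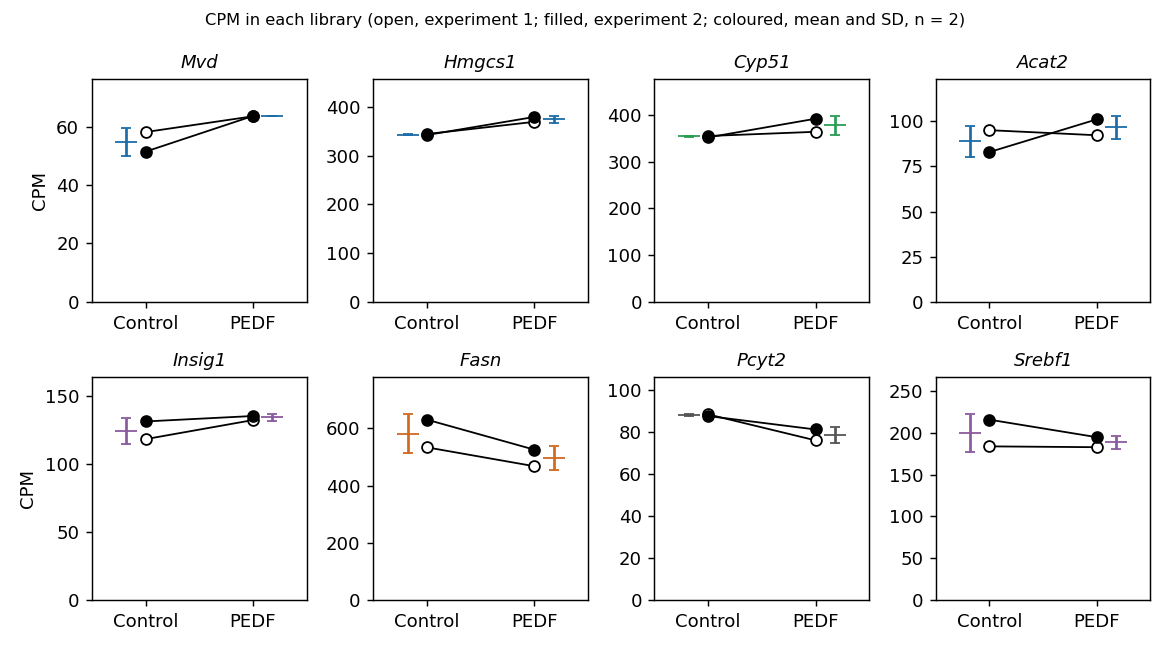
CPM of 8 genes in each library, with lines joining the Control and PEDF libraries of an experiment (open circles, experiment 1; filled circles, experiment 2) and coloured bars for the mean and SD of 2 libraries. Each vertical axis starts at 0. Both PEDF libraries lie above both Control libraries for Mvd, Hmgcs1, Cyp51 and Insig1 and below them for Fasn and Pcyt2, while Acat2 and Srebf1 overlap.

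Over all 34 genes, 17 (50%) were higher with PEDF in both experiments, 7 (20.6%) were lower in both, and 10 went in opposite directions. Of all tested genes 30.1% were higher in both and 28.8% lower in both, and of those with at least 300 counts 32.7% and 30.8%. Both PEDF libraries lay above both Control libraries for 11 of the 34 genes, compared with 18.9% of all tested genes, and below them for 2, compared with 18.4%. Among the 12063 genes with at least 300 counts, they lay above for 2466 and below for 2345. For the other 21 of the 34 genes the groups overlapped. The median log2 fold change with the block was 0.039, and its median size was 0.077, compared with 0.091 in all genes with at least 300 counts, a number that each of the 34 genes had. In experiment 1, 4 genes were over 10% higher and 3 over 10% lower, and in experiment 2 the numbers were 8 and 3.

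The spread of the libraries set limits on what could be seen. The 95% interval of the fold change lay within a 1.25-fold change in either direction for 28 of the 34 genes without the block and for 31 with it. It lay within 1.5-fold for all 34 genes in both fits. A p above the threshold does not show that the levels were equal, and differences within these intervals may not have been detectable with 2 libraries in a group.

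The fold changes of the 34 genes went with gene length, as they did in all genes. Among genes with at least 300 counts, the median log2 fold change with the block was 0.07 in those with under 3000 bp of exon, 0.00 in those of 3000 to 8000 bp and -0.08 in those over 8000 bp. For the 34 genes the same medians were 0.13 (6 genes), 0.03 (24 genes) and -0.09 (4 genes). All 6 short genes were above 0, among them Mvd with 1859 bp. Of the 4 long genes (Acaca, Fasn, Lss and Acss2), 3 were below 0, among them Fasn with 10947 bp. After the length and GC correction the medians of the 34 genes were 0.07, 0.04 and 0.03. Fasn stayed below 0 at -0.11 and Mvd above 0 at 0.17, and Lss (0.01) and Acaca (0.04) turned to values above 0. The trend was present in each experiment. In all genes with at least 300 counts the median log2 ratio of PEDF to Control was 0.06 for short genes and -0.07 for long genes in experiment 1, and 0.09 and -0.09 in experiment 2. For the short and long genes among the 34 it was 0.12 and -0.04 in experiment 1, and 0.13 and -0.13 in experiment 2. A length trend was also present between libraries of the same treatment. From Control 1 to Control 2 the medians of all genes were -0.07 for short and 0.07 for long genes, and from PEDF 1 to PEDF 2 they were -0.05 and 0.05.

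**Figure D4:**
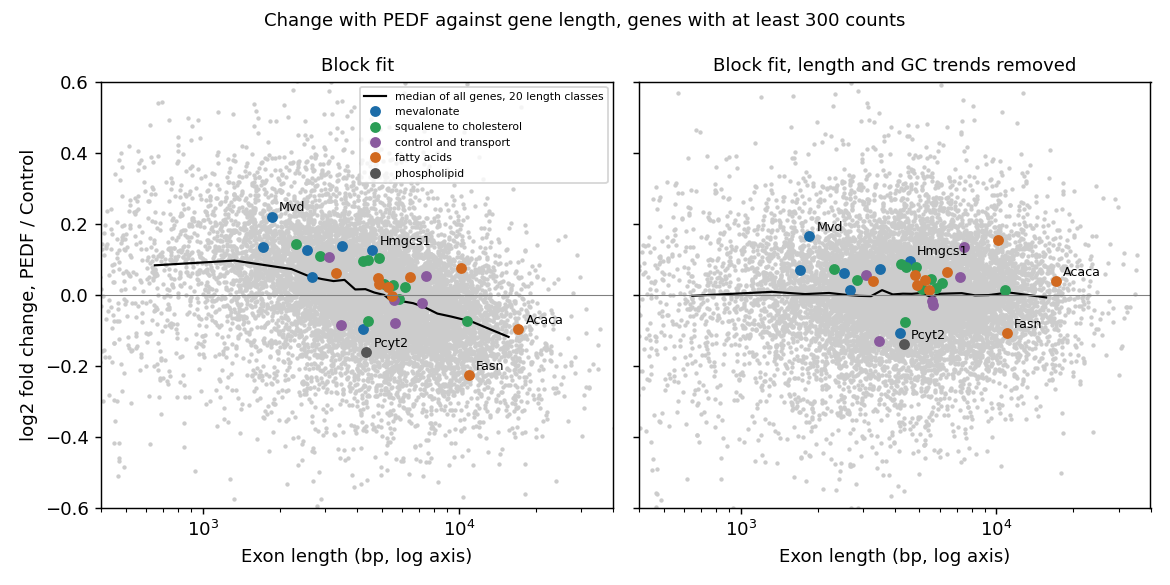
The log2 fold change with PEDF against exon length in bp (log axis) for all genes with at least 300 counts in grey and the 34 genes in colours by role, in the block fit (left) and after removal of the length and GC trends (right), with the median of all genes in 20 length classes as a black line. On the left the line falls from above 0 for short genes to below 0 for long genes, with Mvd above it and Fasn below it, and on the right it is flat near 0.

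Between the MEF preparations 2 of the 34 genes passed in edgeR with the treatment as a covariate. In that fit Fasn was higher in experiment 2 than in experiment 1 by a log2 difference of 0.21 ± 0.0437 (SE, adjusted p = 0.000268), and Srebf1 by 0.16 ± 0.0492 (adjusted p = 0.0318). Of all tested genes 4.49% passed in this comparison. Fasn had 534 and 468 CPM in the Control and PEDF libraries of experiment 1 and 631 and 526 in experiment 2. Srebf1 had 184 and 183 CPM in experiment 1 and 216 and 195 in experiment 2. With no term for the treatment neither gene passed (edgeR, adjusted p = 0.607 for Fasn and 0.641 for Srebf1), and in DESeq2 with both terms Fasn passed (adjusted p = 0.0149) and Srebf1 did not (0.266). With the length and GC correction, an alternative added after the data had been seen, Fasn had 0.13 with an adjusted p of 0.0275 and Srebf1 had 0.12 with an adjusted p of 0.129 in edgeR. In both conditions the summed fibroblast, skeletal muscle and neural markers given above were also higher in experiment 2, and the hepatocyte, macrophage and epithelial markers were lower. Their part in this result was not tested.

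Other genes of lipid metabolism, from a list of 50 tested genes for uptake, transport, storage and sterol control, were counted in the same fits. In the main fit without the block 0 passed, at an unadjusted p under 0.05 2 were higher and 3 lower, beside 3.22% and 3.66% of all genes, and DESeq2 called 0. With the block 2 of the 50 were higher and 2 lower, beside 1.67% and 2.07% of all genes, and after the length and GC correction 2 were higher and 1 lower, beside 0.929% and 1.17%. Their median log2 fold change with the block was 0.025. Lrp1, a large receptor that takes up lipoproteins and many other ligands, had 23850 and 36021 counts without PEDF and 19303 and 27303 with it, and fell with the block by 0.39 on the log2 scale (edgeR, adjusted p = 1.06e-18). After the correction the log2 fold change was -0.22 (edgeR, adjusted p = 1.85e-06), and its exons span 17717 bp. Npc2, which moves cholesterol out of lysosomes, had 3836 and 4263 counts without PEDF and 4458 and 4879 with it. It rose by 0.17 with the block (edgeR, adjusted p = 0.0138) and by 0.19 after the correction (adjusted p = 0.00144).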

How the data were processed

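RNA was sequenced from 2 Control and 2 PEDF libraries of MEFs. The authors prepared directional libraries from polyadenylated RNA. Paired reads were trimmed with Trimmomatic 0.38 and aligned with HISAT2 2.1.0 to mm10, the build in the labels, and reads that mapped uniquely were assigned to genes with featureCounts 1.6.3. The authors deposited raw counts, and beside them TPM values, which sum to the same total in each library. The annotation and the strand setting of the counting are not given in the sources used here. All 34 genes had the same coordinates as in GENCODE M21.

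Counts were tested in R 4.3.3 with edgeR 4.0.16 (TMM factors, quasi-likelihood test with robust dispersion, a filter of 10 counts summed over the libraries that 19384 genes passed, Benjamini-Hochberg adjustment over these, threshold 0.05). The study's methods name no covariate, so the main fit had none. CPM were taken from the TMM-scaled libraries. In a further fit the experiment was a block. The series' design text says that embryos differed between the experiments, which pairs the libraries by preparation. In the 10722 genes whose mean log2 CPM exceeded 3, the differences between the experiments in Control and in PEDF libraries correlated with r = 0.423, a value across genes that are not independent of each other. The correction for length and GC content fitted each library's log2 ratio to the mean by natural splines (5 degrees of freedom), and the fit served as an offset, together with the block. The alternatives were DESeq2 1.42.0 with and without the block, RLE factors, no filter on low counts, filterByExpr, limma 3.58.1 on log2(TPM + 1), a length correction alone, and each library left out. DESeq2 was run with its filtering parameter at the threshold of 0.05, and, added after its results were seen, at its default of 0.1. The methods were tested on simulated data.

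All 34 genes are named, with counts per library for the 10 with the smallest p in the block fit and for Srebf1, Srebf2, Insig1, Insig2, Scd1 and Scd2. The 34 genes, the list of other lipid genes, the marker lists (fibroblast, adipocyte, macrophage, endothelial, epithelial, skeletal muscle, neural and hepatocyte) and the tests were chosen with earlier results of these data known. Of the other lipid genes, Scd3 did not pass the filter, and 2 of the 4 that passed with the block are not reported here. Overlap was measured as the share of exon bases under another gene's exons and of 50-base words of the longest transcript found in another gene's transcripts. Promoters were searched in RefSeq windows on both strands.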

Additional observations from a re-analysis of the deposited data

How the results depend on the processing

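Without the block, the number of the 34 genes that passed was 0 in edgeR, with RLE factors, with no filter, with filterByExpr, in limma and in DESeq2, and between 0 and 1 with a library left out. The 1 was Fasn without Control replicate 1. With the experiment as a replicate block it was 2 in edgeR (Mvd and Fasn) and 1 in DESeq2 (Fasn), also at its default filtering. At the setting of 0.05 the DESeq2 filter left 17 of the 34 genes, Mvd among them, without an adjusted p. With the block and the length correction it was 1 (Fasn, -0.15, adjusted p = 0.0317 in edgeR), and with length and GC content 0. The block changed no other call among the 34 genes. Over all tested genes the number was 1 in the main fit, 726 with the block, 3 in DESeq2, 5 at its default filtering, 119 in DESeq2 with the block, 118 at its default filtering, 106 with no filter, 0 with filterByExpr, 0 in limma, 419 with the block and length correction, 406 with GC content added, and 2 to 205 with a library left out. The 205 came without Control replicate 1 and the 24 without PEDF replicate 2. For the other lipid genes it was 0 in the main fit, 4 with the block, 1 in DESeq2 with the block and at its default filtering with the block, 1 with no filter, 3 with the block and either correction, and 0 to 2 with a library left out, with 2 without Control replicate 1. Between the experiments, 2 of the 34 genes passed, 0 with no term for the treatment, 1 in DESeq2 and 1 with the length and GC correction. Over all genes these numbers were 870, 11, 102 and 631. The cause of these differences was not tested.

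Of 306 fold changes of single genes in 9 other settings, 288 kept their direction and their side of the threshold, 4 passed and 14 turned in direction. With the block and length correction Mvk was 0.00, Lss 0.00, Dhcr7 0.01, Srebf2 0.01, Stard4 0.00, Acaca 0.02 and Scd2 0.01. With GC content added Lss was 0.01, Dhcr7 0.02, Srebf2 0.05, Acaca 0.04 and Scd2 0.01. In limma Msmo1 and Acly were 0.00. With a library left out, 13 genes turned in direction and 21 did not. The ranges were 0.00 to 0.05 for Acly, -0.10 to 0.07 for Dhcr7, -0.01 to 0.11 for Elovl6, -0.26 to 0.09 for Fdps, -0.16 to 0.01 for Lss, -0.03 to 0.07 for Msmo1, -0.03 to 0.14 for Scap, -0.02 to 0.07 for Scd1, -0.04 to 0.03 for Scd2, -0.04 to 0.09 for Sqle, -0.19 to 0.04 for Srebf1, -0.09 to 0.04 for Srebf2 and -0.20 to 0.03 for Tm7sf2. Fasn stayed between -0.34 and -0.10 and Mvd between 0.13 and 0.31. A group with 1 library left was assumed to vary like the other. With 2 libraries in a group, the 95% intervals of 6 of the 34 genes reached beyond a 1.25-fold change without the block.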
